A study of Mus musculus with 4 samples.

Results

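The RNA of 9 genes that start a blood clot, stabilise it, hold it back or dissolve it was described in skin of bleomycin (BLM)-treated mice with and without gasdermin D (GSDMD): F3, F7, F10, F13a1, Thbd, Tfpi, Plau, Plat and Plaur. They were found by symbol among the 24441 genes of the expression table, and all 9 were present. The group was chosen with the difference between GSDMD KO and WT skin already known, F10 having been picked as one of the genes most reduced in KO. Because these genes were selected on that difference, their values are given as a description and no p-value is attached to any of them.

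The libraries came from lesional skin of female C57BL/6 mice, 2 from GSDMD-/- (KO) mice and 2 from wild type (WT) mice. The age is given as postnatal week 8, and whether this was at the first BLM dose or at sampling is not clear. Both genotypes had received BLM, a DNA-damaging drug that causes a scleroderma-like fibrosis, under the skin every other day for 28 days, so the libraries hold no skin without BLM. The knockout came from Cas9 editing in the zygote and was not limited to a given cell type of the skin. The labels number the libraries and do not say that each came from a separate mouse, so p-values measure only the spread between these libraries. Values are FPKM, fragments normalised to transcript length and to library size, which can be compared between genes, and differences are given on the log2(FPKM + 1) scale as KO minus WT.

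Clotting outside the vessel wall begins when tissue factor (F3) on a cell surface binds factor VII (F7), and this pair activates factor X (F10), whose active form makes thrombin. Thrombin turns fibrinogen into fibrin, factor XIII (F13a1) cross-links the fibrin, and tissue factor pathway inhibitor (Tfpi) and thrombomodulin (Thbd) restrain these steps. The fibrin is later dissolved by plasmin, which urokinase (Plau) and tissue-type plasminogen activator (Plat) release from plasminogen, urokinase doing so while held by its receptor (Plaur). In injured skin, macrophages, endothelial cells, fibroblasts and keratinocytes are all known to make some of these proteins.

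Before the values, the promoters of 4 genes are shown, 3 of which were lower in both KO libraries (F7, F10 and Plaur) and 1 of which was not (F3). Each is the RefSeq sequence of mouse GRCm38.p6 from 250 bases before to 50 bases after the annotated start site, read along the gene's strand. Capitals mark matches, on either strand, to short motifs of 7 factors or elements.
F3: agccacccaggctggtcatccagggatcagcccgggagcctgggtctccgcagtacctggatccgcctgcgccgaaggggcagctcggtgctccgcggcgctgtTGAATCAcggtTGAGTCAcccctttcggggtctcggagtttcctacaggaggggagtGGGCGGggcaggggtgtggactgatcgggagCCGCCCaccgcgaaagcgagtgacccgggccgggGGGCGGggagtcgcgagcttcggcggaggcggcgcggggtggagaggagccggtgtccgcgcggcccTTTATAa
F7: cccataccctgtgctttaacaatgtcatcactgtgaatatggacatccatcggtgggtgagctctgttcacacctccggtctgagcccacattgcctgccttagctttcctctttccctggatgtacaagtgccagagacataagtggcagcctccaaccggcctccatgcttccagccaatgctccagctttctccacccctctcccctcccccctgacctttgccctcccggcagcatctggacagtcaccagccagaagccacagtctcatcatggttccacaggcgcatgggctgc
F10: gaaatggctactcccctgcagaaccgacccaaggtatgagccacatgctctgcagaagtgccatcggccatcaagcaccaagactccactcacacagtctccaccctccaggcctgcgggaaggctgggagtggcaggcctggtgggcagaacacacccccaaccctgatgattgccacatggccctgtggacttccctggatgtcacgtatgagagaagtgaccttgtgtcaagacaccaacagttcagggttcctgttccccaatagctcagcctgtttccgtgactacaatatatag
Plaur: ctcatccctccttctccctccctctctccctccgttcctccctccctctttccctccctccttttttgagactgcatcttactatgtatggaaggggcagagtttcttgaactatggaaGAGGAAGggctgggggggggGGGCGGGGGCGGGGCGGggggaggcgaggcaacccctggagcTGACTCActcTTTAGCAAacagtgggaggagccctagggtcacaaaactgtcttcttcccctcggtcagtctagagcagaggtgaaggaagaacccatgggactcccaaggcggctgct
The motifs searched were AP-1 as TGANTCA, PU.1 as GAGGAAG, Sp1 as GGGCGG, the TATA box as TATAAA, C/EBP as TTGCNNAA, the cAMP response element as TGACGTCA and Egr-1 as GCGGGGGCG. Among 32851 RefSeq windows of the same length, AP-1 letters stood in 7.81%, PU.1 in 13.6%, Sp1 in 35.7%, the TATA box in 13.6%, C/EBP in 10.8%, the cAMP response element in 1.79% and Egr-1 in 2.91%.
The F3 window held 2 AP-1 matches, at -146 and -135 bases from the start site, and 3 Sp1 matches. It also held a TATA box match at 43 bases after the start. The Plaur window held an AP-1 match at -69, a C/EBP match at -59, a PU.1 match at -131, and 3 Sp1 matches between -111 and -100. An Egr-1 match at -109 overlapped 2 of these Sp1 matches. In the F7 and F10 windows these letters did not occur, which says nothing about whether the factors bind elsewhere. Windows were found for 6 of the 9 genes. Of those not printed, F13a1 (2 windows) held PU.1 matches in both, and Tfpi (2 windows) held PU.1 and Sp1 matches in both and a TATA box match in 1. Plau, Plat and Thbd are named only.

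The libraries differed in more than genotype. Gsdmd itself measured 14.1 and 18.2 FPKM in the WT libraries, against 3.53 and 2.26 FPKM in those of KO, in the direction of the labels. Markers of keratinocytes were abundant in all 4 libraries, with a summed level of 3547 to 10634 FPKM, and those of skeletal muscle more so, at 12457 to 20171 FPKM. KO replicate 2 stood apart from the others: its summed fibroblast markers were 26.1 FPKM against 187 to 429 in the other 3 libraries, its endothelial markers 18.4 against 100.2 to 157, and its macrophage markers 105 against 903 to 2247. RNA of 4 of 15 Y-linked genes, with a summed level of 1.78 FPKM, was present in that library and in no other, although the mice are labelled female. Its adipocyte markers summed to 208 FPKM against 1753 to 4798 and its red blood cell markers to 33.2 against 119 to 232. KO replicate 1 stood apart in hair follicle markers, which summed to 336 FPKM against 0.722 to 10.3 in the other 3 libraries. In a bulk sample, fewer cells of a type and less RNA per cell cannot be told apart.

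**Figure D1:**
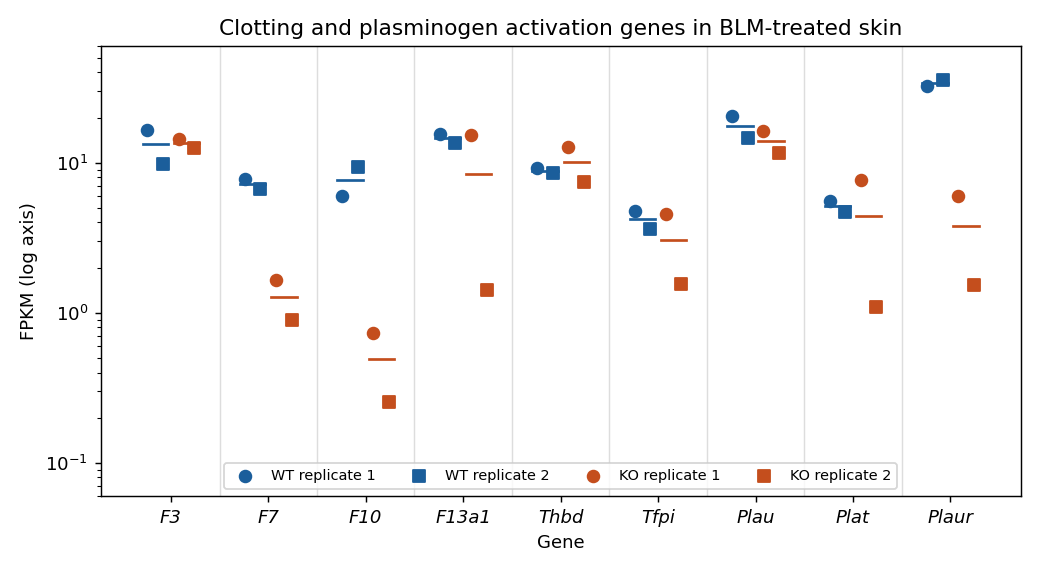
FPKM of the 9 genes in each library on a log axis, with WT in blue, KO in orange, circles for replicate 1, squares for replicate 2 and a bar at each group mean. F7, F10 and Plaur are the genes whose KO points both lie under both WT points, and F13a1 and Plat each have 1 KO point far under WT, the other lying within the WT range for F13a1 and above it for Plat.

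Of the genes that start clotting, RNA of tissue factor overlapped between the 2 genotypes, while that of the enzymes it works with, F7 and F10, was several-fold lower in KO. F3 measured 16.6 and 9.88 FPKM in the WT libraries, against 14.5 and 12.6 FPKM in those of KO. The gene spans chr3:121426455-121437970 of mm9 with 6 exons in its longest transcript. The KO values lay between the WT values, and the log2 difference was 0.07 (SE 0.32, n = 2 per group). F7, the enzyme that tissue factor binds, measured 7.80 and 6.69 FPKM in the WT libraries, against 1.66 and 0.895 FPKM in those of KO. Its groups did not overlap: WT averaged 7.24 ± 0.787 FPKM (SD, n = 2) and KO 1.28 ± 0.541 FPKM, a ratio of means of 5.67. F10, the zymogen that the pair activates, measured 6.00 and 9.41 FPKM in the WT libraries, against 0.738 and 0.255 FPKM in those of KO. WT averaged 7.70 ± 2.41 FPKM and KO 0.496 ± 0.342 FPKM, a ratio of means of 15.5 with no overlap between the groups. On the log2 scale the differences were -1.87 (SE 0.28) for F7 and -2.53 (SE 0.33) for F10. The scale understates them at such low levels, and with a pseudocount of 0.1 in place of 1 they were -2.47 and -3.80.

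F7 and F10 were lower in each KO library taken alone. Against the WT mean, the log2 difference of F7 was -1.63 in KO replicate 1 and -2.12 in KO replicate 2. For F10 these differences were -2.30 and -2.77. The low KO values rest on few fragments: from the size of the steps between low values, F10 had about 25.4 and 8.12 fragments in the KO libraries and 261 and 333 in the WT libraries. For F7 the estimates were 42.4 and 21.2 fragments in KO and 252 and 176 in WT. F10 passed the minimum of 1 FPKM in 2 libraries only through its WT values, both KO values being under it, whereas F7 reached the minimum in 3 libraries. Relative to F3 in the same library, F7 stood at 0.469 and 0.677 in WT and 0.115 and 0.0709 in KO. F10 relative to F7 was 0.769 and 1.41 in WT and 0.445 and 0.285 in KO, so F10 was lower relative to F7 in both KO libraries than in both WT libraries.

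F7 and F10 are neighbours on mouse chromosome 8 and are read in the same direction. In the mm9 build used for the table, F7 spans chr8:13026034-13035805 with 8 exons in its longest transcript, and F10 spans chr8:13037308-13056676 with 9 exons. Only 1502 bases separate the end of F7 from the start of F10, and no exon of either overlaps an exon of another annotated gene. The next gene, Proz, begins 4231 bases beyond F10 and encodes protein Z, a cofactor in the inhibition of factor X. It reached at most 0.326 FPKM in any library and was not tested. Farther out, Mcf2l had a log2 difference of 0.45 (SE 0.26), Atp11a of 0.08 (SE 0.26), Pcid2 of -0.11 (SE 0.23) and Cul4a of -0.02 (SE 0.23). Lamp1, which encodes an abundant lysosomal membrane protein, measured 327 and 369 FPKM in the WT libraries, against 278 and 207 FPKM in those of KO, a log2 difference of -0.53 (SE 0.27). F10 was chosen for its difference, so its size beside these neighbours is a description only.

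**Figure D2:**
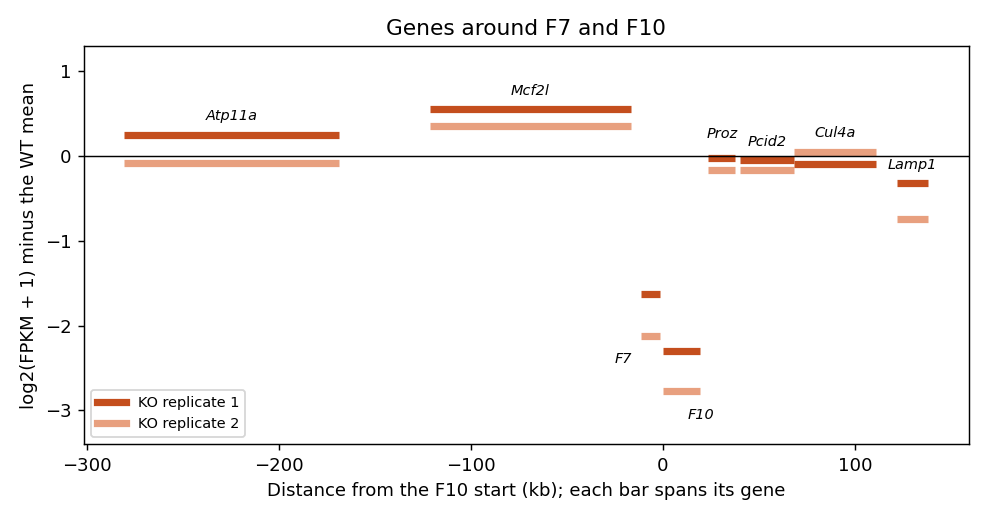
Log2(FPKM + 1) of each KO library minus the WT mean for F7, F10 and the surrounding genes with RNA above 0, plotted against distance from the F10 start in kb, each bar spanning its gene. F7 (-1.63 and -2.12) and F10 (-2.30 and -2.77) are drawn beside the neighbouring genes, of which Lamp1 (-0.32 and -0.74) lies lowest, F10 itself having been chosen for its difference.

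The gene that stabilises the clot, F13a1, differed more between the KO libraries than WT differed from KO replicate 1. F13a1 encodes the catalytic subunit of factor XIII and is a known marker of dermal macrophages. It stood at 15.5 and 13.6 FPKM in WT and at 15.4 FPKM in KO replicate 1, within the WT range, but at 1.42 FPKM in KO replicate 2. The KO libraries differed 10.8-fold from each other, a ratio that 1.78% of the 13027 genes tested reached. The log2 difference between the genotypes, -1.30 (SE 0.89), became 0.08 without KO replicate 2. The gene spans chr13:36959047-37142113 of mm9 with 15 exons.

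The 2 anticoagulant genes overlapped between the genotypes. Thbd, the endothelial thrombin receptor that turns thrombin to the activation of protein C, measured 9.24 and 8.50 FPKM in the WT libraries, against 12.7 and 7.44 FPKM in those of KO, with a log2 difference of 0.13 (SE 0.32). Its KO values lay on both sides of the WT values. Thbd is a single-exon gene at chr2:148230207-148233924, and Tfpi, with 8 exons, lies on the same chromosome at chr2:84273017-84316932. Tfpi, which blocks the tissue factor and factor VII complex with factor X bound, measured 4.79 and 3.63 FPKM in the WT libraries, against 4.53 and 1.55 FPKM in those of KO. KO replicate 1 lay inside the WT range and KO replicate 2 under it, and the log2 difference of -0.46 (SE 0.43) became 0.10 without KO replicate 2. As a ratio to F3, Tfpi was 0.288 and 0.367 in WT and 0.313 and 0.123 in KO. The inhibitor thus kept its WT ratio to tissue factor in KO replicate 1 and was lower against it in KO replicate 2.

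Among the plasminogen activation genes, the receptor differed most and the activators less. Plaur, the membrane-anchored receptor that holds urokinase at the cell surface, measured 32.6 and 35.5 FPKM in the WT libraries, against 6.04 and 1.54 FPKM in those of KO. It averaged 34.1 ± 2.00 FPKM in WT and 3.79 ± 3.18 FPKM in KO, a ratio of means of 8.98 and a log2 difference of -3.05 (SE 0.51). The gene spans chr7:25247502-25260987 with 7 exons. The groups were far apart, with each KO library under the WT mean by itself (log2 differences of -2.31 and -3.78). Plau, the protease it binds, measured 20.4 and 14.6 FPKM in the WT libraries, against 16.3 and 11.6 FPKM in those of KO, with overlap between the groups and a log2 difference of -0.31 (SE 0.30) that was -0.08 without KO replicate 2. The ratio of receptor to urokinase RNA was 1.60 and 2.43 in WT and 0.371 and 0.133 in KO, so receptor RNA exceeded that of its ligand in both WT libraries and in neither KO library.

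Plat, the activator made largely by endothelial cells, measured 5.55 and 4.73 FPKM in the WT libraries, against 7.71 and 1.09 FPKM in those of KO. KO replicate 1 was the highest of the 4 libraries and KO replicate 2 the lowest, a 7.07-fold difference that 3.20% of the genes tested reached. The log2 difference of Plat was -0.52 (SE 0.69) and became 0.51 without KO replicate 2. Plau lies at chr14:21655884-21662610 with 11 exons and Plat at chr8:23868194-23893320 with 14. No exon of any of the 9 genes overlaps an exon of another annotated gene. Urokinase exceeded tissue-type activator in every library, by 3.68- and 3.08-fold in WT and 2.12- and 10.6-fold in KO.

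Across the 9 genes, 3 were lower in both KO libraries than in both WT libraries (F7, F10 and Plaur), none was higher in both, and 6 overlapped. The same order was found in 20.5% of the 13027 genes tested for lower and in 35.3% for higher. The count of 3 is not a result about these genes, since they were chosen on the same contrast. Their median log2 difference was -0.52, beside 0.11 over all genes tested, and it rested on the choice of library, being 0.08 beside 0.11 without KO replicate 2 and -1.55 beside 0.13 without KO replicate 1. With libraries scaled by median-ratio factors, which moves the median of all genes from 0.11 to -0.01, the lower and higher shares of all genes were 26.9% and 27.3%. F13a1 and Plau then also lay below both WT libraries, making 5 of 9, each by a narrow margin in KO replicate 1. Relative to that shift, the log2 differences were -1.97 for F7, -2.61 for F10, -3.17 for Plaur, -0.44 for Plau, and -0.06 for F3, whose sign changed.

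The order of the 9 levels also differed between the genotypes. In WT, Plaur was highest and did not overlap the next gene. Plau, F13a1 and F3 followed with ranges that ran into one another, then Thbd, F10 and F7, and then Plat and Tfpi, the lowest. In KO, Plau and F3 were highest, and neighbours in the order overlapped from Plau down to F7. F10 alone, at 0.255 to 0.738 FPKM, lay apart at the bottom. As a place in the whole table, F10 stood above 68.2% and 76.0% of the rows in WT and above 44.5% and 41.4% in KO, and Plaur above 90.8% and 91.5% in WT and 66.6% and 52.8% in KO.

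Macrophage markers moved with F7, F10 and Plaur. Of 12 such markers, 9 were lower in both KO libraries than in both WT libraries, an order found in 20.5% of all genes tested. The 12 summed to 2160 and 2247 FPKM in WT, against 903 and 105 FPKM in KO. None of the 12 was at 0. Csf1r, the receptor that macrophages need to survive, measured 34.6 and 46.7 FPKM in the WT libraries, against 16.3 and 1.90 FPKM in those of KO. Set against the mean log2 level of the 12 markers in the same library, Plaur was still lower in both KO libraries, at -2.10 and -1.10 beside -0.71 and -0.90 in WT. F10 on that scale was -2.98 and -2.71 in WT and -4.12 and -2.12 in KO, and F7 was -2.65 and -3.15 in WT and -3.51 and -1.52 in KO. Both were thus lower than both WT libraries relative to the markers in KO replicate 1. In KO replicate 2 the marker mean was only 2.44. Even a gene at 0 FPKM there would stand above both WT values of F7, F10, Tfpi and Plat. The higher KO replicate 2 values of these genes on this scale therefore show no direction. F3, F13a1, Thbd, Tfpi, Plau and Plat were higher in both KO libraries on this scale, for Tfpi and Plat with that limit. The order depended on the choice of markers for every gene but Plaur, which was lower in both KO libraries against each list. Against 7 keratinocyte markers all 9 genes were lower in both KO libraries. Against 8 endothelial markers F10 and Plaur were lower and Thbd and Plat higher, and against 7 fibroblast markers F13a1 and Plaur were lower.

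**Figure D3:**
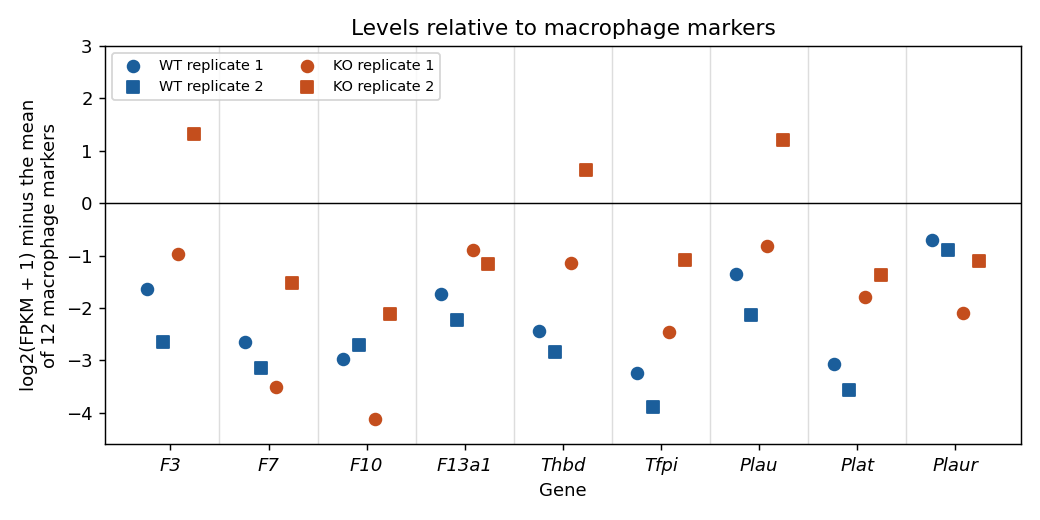
Log2(FPKM + 1) of each of the 9 genes minus the mean of 12 macrophage markers in the same library, with WT in blue, KO in orange, circles for replicate 1 and squares for replicate 2. Plaur is the gene with both KO points under both WT points, F7 and F10 have KO points on either side, and the other 6 genes lie higher in KO. In KO replicate 2 even a gene with no RNA would lie above both WT points of F7, F10, Tfpi and Plat, so those squares show no direction.

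Other cell types moved with the genes in part. Endothelial markers (8 listed, 1 lower in both KO libraries) summed to 100.2 and 157 FPKM in WT, against 133 and 18.4 FPKM in KO, and fibroblast markers (7 listed, 0 lower in both) to 274 and 187 FPKM in WT, against 429 and 26.1 FPKM in KO. Neutrophil markers were scarce, 12.6 and 17.7 FPKM in sum in WT, against 8.79 and 3.47 FPKM in KO, with 4 of 7 lower in both KO libraries. Of those 4, Ly6g and Mmp8 were under the minimum for testing. Ly6g stood at 0.238 and 0.0928 FPKM in WT and 0 in KO, and Mmp8 at no more than 0.640 FPKM. Cxcr2, Elane and Camp overlapped. The platelet list (7 listed, 3 lower and 1, Itga2b, higher in both) summed to 236 and 226 FPKM in WT, against 77.5 and 16.8 FPKM in KO, of which Pf4 made up 226 and 219 FPKM in WT, against 64.7 and 9.06 FPKM in KO, and Gp6 was at 0 in every library. The 6 liver markers reached at most 1.15 FPKM, so RNA of the organ that makes most plasma F7 and F10 was close to absent. Of skeletal muscle markers 4 of 6 were lower in both KO libraries. So were 3 of 5 red blood cell markers and 1 of 5 adipocyte markers, while 5 of 8 hair follicle markers were higher in both. Over all genes tested, 20.5% were lower in both KO libraries and 35.3% higher. The adipocyte, endothelial and fibroblast counts do not exceed that lower share. The part of any of these cell types in the differences was not tested.

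Some genes followed the pattern of F10 closely. By the root mean square difference of centred log2(FPKM + 1) over the 4 libraries, the 5 nearest were Dpep2 (0.123), Mcemp1 (0.138), Fpr2 (0.202), Gsdmd (0.210) and Mybph (0.253). Dpep2 encodes a membrane dipeptidase and measured 20.7 and 29.0 FPKM in the WT libraries, against 5.31 and 2.86 FPKM in those of KO. Fpr2, a formyl peptide receptor of phagocytes, measured 4.54 and 9.89 FPKM in the WT libraries, against 0.893 and 0.413 FPKM in those of KO. Mcemp1 measured 4.38 and 7.77 FPKM in WT, against 0.606 and 0.245 FPKM in KO. Mybph was far more abundant, at 138 and 226 FPKM in WT, against 49.2 and 36.4 FPKM in KO. This likeness rests on 4 libraries, 2 in each genotype, and is a description only.

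The rest of the pathway was taken from a list of 45 other genes of clotting and fibrinolysis, of which 19 reached 1 FPKM in 2 libraries. The limma test over all 13027 genes, with Benjamini-Hochberg adjustment, called 0 of the 19 and 0 of all genes (0%) at an adjusted p under 0.05 and a log2 difference above 1 in size. The paper used DESeq2 on read counts at the same threshold and reported differentially expressed genes, so these 0 calls belong to limma on FPKM. The lowest adjusted p was 0.190 over all genes and 0.248 over the 19. At an unadjusted p under 0.05 with that difference, limma gave 1 of the 19 as lower and 2 as higher, beside 4.14% and 6.16% of all genes. By order alone, 3 of the 19 were lower in both KO libraries (Lrp1 and Vtn among them), 6 were higher (F2rl1, Serpinb2, Plgrkt, Pros1, Vkorc1 and Ggcx) and 10 overlapped, and the median log2 difference was 0.05. These are 15.8% and 31.6% of the 19, near the 20.5% and 35.3% of all genes tested. With median-ratio factors, 4 were lower and 4 higher, 21.1% each beside 26.9% and 27.3% of all genes. For 1 gene in 2 libraries against 2, the smallest two-sided p of an exact permutation test is 0.333.

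The genes that oppose or clear the plasminogen activators were mixed. Serpinb2, or PAI-2, an inhibitor of urokinase made by macrophages and keratinocytes, was higher in both KO libraries, at 22.6 and 55.2 FPKM beside 20.5 and 13.8 FPKM in WT (log2 difference 1.03, limma adjusted p = 0.337, and 0.40 without KO replicate 2). Serpine2, or protease nexin-1, overlapped, with a log2 difference of -0.10. Serping1, the C1 inhibitor that restrains plasma kallikrein, measured 86.7 and 132 FPKM in the WT libraries, against 103 and 6.45 FPKM in those of KO, so only KO replicate 2 was low and the log2 difference of -1.96 became -0.06 without it.

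Among receptors and partners of plasminogen, Plgrkt, a plasminogen receptor of the cell surface, measured 22.8 and 19.8 FPKM in the WT libraries, against 34.7 and 55.0 FPKM in those of KO (log2 difference 1.01, limma adjusted p = 0.251, and 0.68 without KO replicate 2). Lrp1, which takes up urokinase and other ligands from the cell surface, measured 18.7 and 41.3 FPKM in the WT libraries, against 17.3 and 5.25 FPKM in those of KO. Vtn, or vitronectin, a matrix protein that binds Plaur, measured 6.00 and 6.37 FPKM in the WT libraries, against 3.92 and 0.432 FPKM in those of KO. The log2 differences were -1.43 (SE 0.64) for Lrp1 and -1.44 (SE 0.60) for Vtn, with limma adjusted p = 0.322 and 0.306, and without KO replicate 2 they were -0.66 and -0.55. Neither overlapped between the groups, although KO replicate 1 of Lrp1 lay only just under the lower WT value. S100a10, which with annexin A2 forms a plasminogen receptor, overlapped, with a log2 difference of 0.20.

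Of 4 receptors that sense clotting proteases, 2 were tested, of which 1 was higher in both KO libraries and 1 overlapped. F2rl2 and F2rl3 were not tested, at no more than 0.874 FPKM in any library. F2rl1, or PAR2, a receptor that factor VIIa with tissue factor, factor Xa and trypsin-like proteases can activate, measured 5.07 and 2.90 FPKM in the WT libraries, against 11.3 and 16.9 FPKM in those of KO. Both KO values were above both WT values, and the log2 difference was 1.61 (SE 0.35, limma adjusted p = 0.248), the lowest adjusted p of the 19 genes. F2r, the thrombin receptor PAR1, overlapped with a log2 difference of 0.05. Keratinocytes are known to express F2rl1. Of 7 keratinocyte markers, 4 were also higher in both KO libraries, an order found in 35.3% of all genes tested. Among them Krt14 measured 1293 and 1214 FPKM in WT, against 2689 and 2735 FPKM in KO. None of the 7 was at 0. The other 3, Krt1, Krt10 and Lor, which mark the upper epidermis, were above both WT libraries in KO replicate 1 and below both in KO replicate 2, with Krt10 at 745 and 364 FPKM in WT, 1670.0 FPKM in KO replicate 1 and 266 FPKM in KO replicate 2. Their part in the F2rl1 and Serpinb2 values was not tested.

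**Figure D4:**
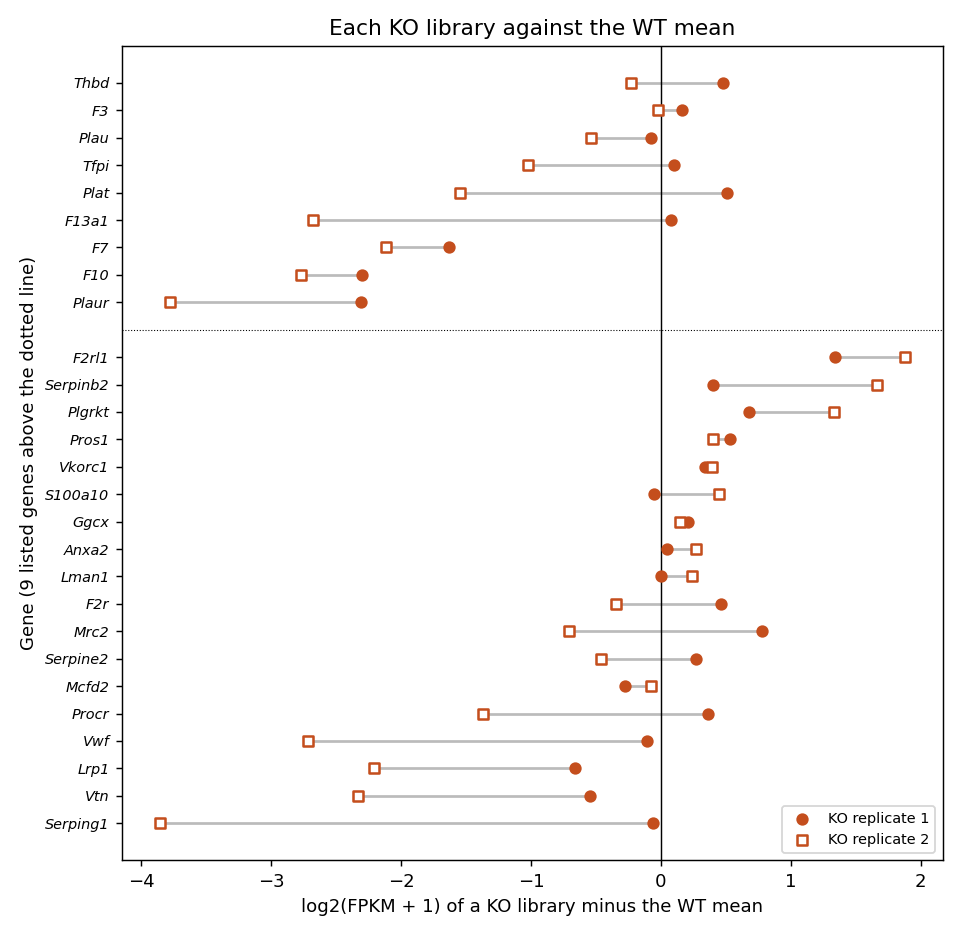
Log2(FPKM + 1) of each KO library minus the WT mean for the 9 listed genes (above the dotted line) and all but 1 of the 19 other pathway genes tested, with filled circles for KO replicate 1 and open squares for KO replicate 2. F7, F10 and Plaur lie far under 0 in both libraries, F2rl1 lies above 0 in both (1.34 and 1.88), and Serping1, Vwf and F13a1 lie near 0 in replicate 1 and far under it in replicate 2.

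Of the anticoagulant side, Procr, the endothelial protein C receptor, measured 7.13 and 9.89 FPKM in the WT libraries, against 11.1 and 2.64 FPKM in those of KO and overlapped. Pros1, or protein S, the cofactor of protein C and of Tfpi, was higher in both KO libraries, at 21.1 and 19.2 FPKM beside 15.8 and 13.1 FPKM in WT (log2 difference 0.46, limma adjusted p = 0.364). Vkorc1, the vitamin K reductase needed for carboxylation of F7 and F10, measured 39.5 and 63.6 FPKM in the WT libraries, against 63.8 and 66.1 FPKM in those of KO, with replicate 1 of KO barely above the higher WT value. Vwf, the endothelial and platelet adhesion factor, measured 7.49 and 13.1 FPKM in the WT libraries, against 9.12 and 0.659 FPKM in those of KO.

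The remaining 26 genes did not reach the minimum and were not tested. Prothrombin (F2) reached at most 0.179 FPKM, plasminogen (Plg) 0.127 FPKM and fibrinogen alpha (Fga) 0.0267 FPKM, and the 12 untested clotting factors and fibrinogen chains at most 0.489 FPKM. A transcript of 1 kb with 3 fragments would stand at 0.173 to 0.235 FPKM in these libraries.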

How the data were processed

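Skin RNA of 4 libraries (2 GSDMD KO, 2 WT) was analysed. Per the submitters' processing notes, reads were mapped to mm9 with HISAT2 version 2.0.1 and assembled with StringTie version 2.0.6. The study's methods also name featureCounts and DESeq2. The authors deposited a table whose name says counts, yet 99.993% of values above 0 are not exactly whole. No header names the unit. The deposited values were taken as FPKM, scaled by the authors for length and depth, because StringTie writes FPKM and low values, multiplied by transcript length, fell in even steps. A count model therefore could not be used. The 9 genes and the lists of other genes were chosen with earlier results of these data known.

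The 13027 of 24441 genes that reached 1 FPKM in 2 or more libraries were fitted as log2(FPKM + 1) on genotype in limma (version 3.58.1, R 4.3.3) with a mean-variance trend and Benjamini-Hochberg adjustment over all of them. All 9 genes passed. The fit was tested on simulated data. Named besides the 9 are Gsdmd, the 12 pathway genes with the largest absolute difference, Serpine2, Procr, F2r, F2rl1, Plg, F2 and Fga whatever their values, and the 5 genes nearest F10. Neighbours of F10 and single marker genes were named after their values were seen. Depth came from the spacing of low values in 2710 genes with 1 transcript: 1 fragment on 1 kb was worth 0.0575 to 0.0785 FPKM, an approximate figure. Loci came from GENCODE vM1, where 20132 symbols were found and 99.2% overlapped. RefSeq promoters are of another build, and none of their coordinates were used. Protein sequences were not used here, and 1 pathway gene is counted but not reported here.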

Additional observations from a re-analysis of the deposited data

How the results depend on the processing

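Over 11 alternatives (scaling, pseudocounts 0.1 and 0.5, filters, leaving out a library), the log2 differences lay between -2.47 and -1.63 for F7, -3.80 and -2.24 for F10, -0.54 and -0.08 for Plau and -3.78 and -2.31 for Plaur. The lack of overlap fixes the sign of F7, F10 and Plaur when a library or the pseudocount changes, so it is no sign of stability. The sign changed for F3 in 4 of them, for F13a1, Tfpi and Plat without KO replicate 2 and for Thbd without KO replicate 1. Over all genes, 0 were called by limma in each alternative that kept all libraries, with a genotype fit with a replicate block included, where 0 pathway genes were called too. The same-numbered libraries deviated with a correlation of -0.202 and share only a number. With the numbers crossed, an alternative chosen after seeing the data, 0 genes were called. At an unadjusted p, 1341 of all genes and 3 pathway genes were called, with 802 higher and 539 lower, and with median-ratio factors 616 and 700. Leaving out 1 library gave 0 to 2058 genes, 2058 if KO replicate 1 was dropped and 43 if KO replicate 2 was, and 0 to 9 pathway genes, 9 without KO replicate 1 (Vwf, Procr, F2rl1, Plgrkt, Lrp1, Vtn, Serpinb2 and Serping1 among them). These counts are out of 13027 genes tested and 19 pathway genes tested. The lone library is then assumed to vary like the other group, so nothing about the pathway is concluded from these counts. Pathway genes lower in KO without overlap numbered 11 of 45 with no filter (24.4% beside 19.2% of all genes), 8 of them under the usual minimum and some near 0. With a library left out they numbered 3 to 9 of 19, 6 without WT replicate 1 (31.6% beside 30.6%) and 9 without KO replicate 1 (47.4% beside 37.0%). Among the pathway genes given with values above, directions turned for F2r with upper-quartile scaling (-0.02) and median-ratio factors (-0.05). On leaving out a library they turned for F2r (-0.35 to 0.46), Procr (-1.37 to 0.36), Serpine2 (-0.46 to 0.27) and S100a10 (-0.05 to 0.45). The cause was not tested. With 2 libraries per group and about 8.12 fragments of F10 in KO replicate 2, the size of its difference is imprecise.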
